A study of Homo sapiens with 4 samples.

Results

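A set of 9 genes of retinoid handling were followed in TE5 cells with and without overexpressed ETS1: RBP7 and CRABP2, which encode carriers, RDH10, DHRS3 and ALDH1A3, which encode enzymes, and RARA, RARB, RARG and RXRA, which encode receptors. They were picked by name, and all 9 are among the 55764 gene names of the deposited table. RBP7 brought the set together because it showed one of the largest rises between the groups, so its values are given as a description, without a test. TE5 is a human oesophageal squamous cell carcinoma line. In 2 libraries the cells had been infected with a lentiviral vector that expresses ETS1, an ETS-family transcription factor, from a CMV promoter and had then been selected. The other 2 libraries, the controls, came from cells given the backbone alone, with the genotype labelled WT. The labels do not say whether the selected cells were a pool or a clone, or whether the libraries numbered 1 and 2 came from separate cultures, so p-values measure only the spread between these libraries, which may be technical.

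Retinol enters cells and is held by small cytosolic binding proteins. Retinol dehydrogenases oxidise it reversibly to retinal, the ALDH1A enzymes turn retinal irreversibly into retinoic acid, and the CYP26 enzymes break retinoic acid down. Retinoic acid binds the RAR receptors, which sit on DNA as partners of RXR, hold corepressors without ligand and coactivators with it, and induce a set of genes that includes RARB itself. Retinoids are known for restraining squamous differentiation in stratified epithelia, the oesophagus among them.

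Levels are in FPKM, fragments scaled to gene length and to library size, which allows genes to be compared per length. Changes are log2(FPKM + 1) in ETS1 minus control, fitted with limma over the 14306 genes with a mean of at least 1 FPKM, and a gene was called when its p, adjusted over all of them, was under 0.05. Adding 1 FPKM makes the printed change of a gene with few FPKM smaller than its FPKM ratio. The ETS1 libraries were 1.35 times as deep on average, with 57269983 and 56502874 reads against 40356723 and 44119604, as recovered from the FPKM steps. ETS1 had 0.500 ± 0.0129 FPKM in the controls and 1.85 ± 0.0176 in the ETS1 libraries (SD, n = 2 each), and native and vector transcripts are not separated. The squamous markers TP63, KRT5, KRT14, KRT6A and KRT17 were at 0 in both controls and reached at most 0.0697 FPKM in the ETS1 libraries. PERP was expressed, at 38.4 and 35.8 FPKM in the controls and 45.4 and 45.3 in the ETS1 libraries. With SFN and EGFR, both far lower, the summed squamous list lay between 38.2 and 40.6 FPKM in the controls. In the ETS1 libraries it lay between 48.5 and 48.7 FPKM. This sum and its rise were mostly PERP. The simple-epithelial markers KRT8, KRT18 and EPCAM summed to between 15.5 and 16.0 FPKM in all 4 libraries, but they did not move together. KRT8 rose by 0.62 and KRT18 fell by 0.29 (limma adjusted p = 0.000591 and 0.00223), and EPCAM changed by -0.23 without passing (limma adjusted p = 0.0525). KRT8 (52897187 to 52949954, minus strand) and KRT18 (52948871 to 52952901, plus strand) overlap on chromosome 12. Strand use is not given in the sources used here, so reads of the shared stretch cannot be assigned. All 4 leukocyte markers, the 2 endothelial markers found in the table and 4 of 5 fibroblast markers were under 0.5 FPKM in every library, and the fibroblast sum, mostly COL1A1, was 2.12 and 2.25 FPKM in the controls and 3.05 and 3.14 in the ETS1 libraries. The part of these marker shifts in the values below was not tested.

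In brief, RBP7 had 2.91 FPKM on average in the controls and 19.98 with ETS1, still under CRABP2. CRABP2, RDH10 and RARB rose, and RARA fell. DHRS3, RARG and RXRA did not pass the test. ALDH1A3 lay under the filter and was not tested here. Of the 7 tested genes other than RBP7, 3 were called higher and 1 lower, where 30.7% of all tested genes were called higher and 28.4% lower (59.1% in either direction). The groups did not overlap for any of these 7 genes, 5 higher and 2 lower in the ETS1 libraries, against 43.1% of all tested genes higher, 38.9% lower and 82% in either direction. The tested members other than RBP7 had a median change of 0.12 on the log2 scale, against 0.016 over all tested genes. In bulk RNA, a change in the share of cells that express a gene and a change in RNA per cell cannot be told apart.

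**Figure D1:**
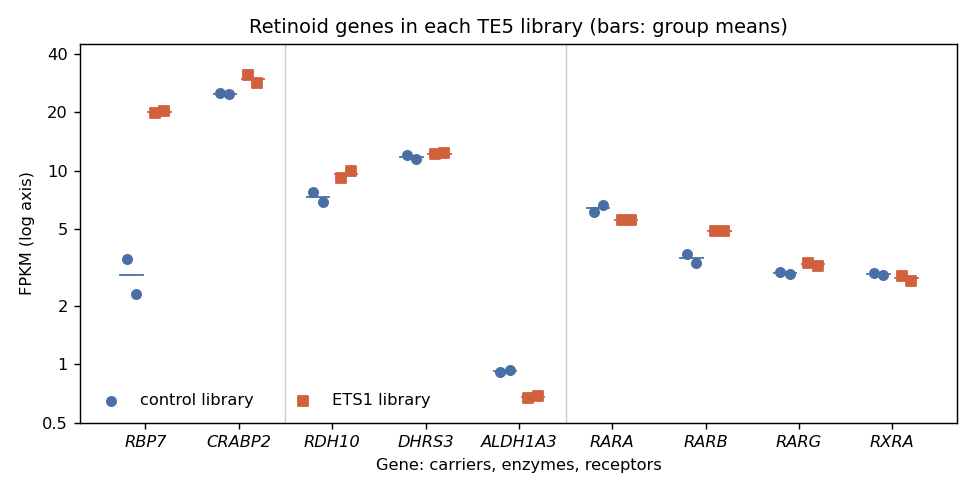
FPKM (log axis) of the 9 genes in each library, with circles for the 2 control and squares for the 2 ETS1 libraries and short bars at the group means. RBP7 moves from 3.49 and 2.32 FPKM to 19.8 and 20.2 FPKM, while the other 8 genes shift by much smaller steps.

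RBP7 encodes a cellular retinol-binding protein, best known from adipose tissue and endothelium. It stood at 3.49 and 2.32 FPKM in the controls and at 19.8 and 20.2 FPKM with ETS1. These values rest on 121 and 88 control reads and on 974 and 980 ETS1 reads. Both ETS1 libraries lie far above both controls, and the lowest and highest of the 4 between-group ratios were 5.67 and 8.69. The means were 2.91 ± 0.826 and 19.98 ± 0.277 FPKM (SD, n = 2 each). The log2 change was 2.44 with a standard error of 0.14, which ranked 2 among the rises of all tested genes on this scale and is what chose the set. The ratio of the 2 controls was 1.50, with an exact 95% interval of 1.13 to 2.00 that covers counting error only, and the ratio of the ETS1 libraries was 0.981, with an interval of 0.896 to 1.07. The controls were thus farther apart than the ETS1 libraries. Without control 1 the change was 2.66, and without control 2 it was 2.22.

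RBP7 lies on chromosome 1 from 9997206 to 10016020 on the plus strand (GENCODE 29 on GRCh38), and no other annotated gene matched by name overlaps it. The 250 bases before its RefSeq start, chr1:9996978-9997227 on the plus strand of GRCh38.p14, are shown because RBP7 has the largest change of the set and ETS-family proteins recognise a GGAA core. Capitals mark GGAA; the reverse strand holds none.

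RBP7: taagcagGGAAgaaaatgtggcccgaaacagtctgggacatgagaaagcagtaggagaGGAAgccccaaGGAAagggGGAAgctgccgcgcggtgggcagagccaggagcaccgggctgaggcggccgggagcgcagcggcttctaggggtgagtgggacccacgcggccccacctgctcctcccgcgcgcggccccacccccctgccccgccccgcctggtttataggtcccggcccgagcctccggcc

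The window holds 4 matches to GGAA, whose first bases are at -243, -192, -181 and -173 relative to the start. This is a description of the letters only. On either strand, 92.7% of all 35116 RefSeq windows of this length hold GGAA, with a median of 3 matches. Neither the longer ETS-type string CCGGAA (14.5% of windows) nor any of 4 retinoid half-sites occurs in the RBP7 window on either strand. The half-sites searched were the motif AGGTCA (12.1% of windows), the variant AGTTCA (8.80%), the variant GGTTCA (7.16%) and the variant GGGTCA (12.1%).

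The genes around RBP7 changed by much less or were lower. Of the 4 nearest tested protein-coding genes on each side, NMNAT1 was 2.39 and 2.35 FPKM in the controls and 2.98 and 2.89 FPKM in the ETS1 libraries, a change of 0.23 (limma adjusted p = 0.0118). UBE4B, whose lower coordinate is 35.6 kb beyond that of RBP7, changed by 0.055 and did not pass (limma adjusted p = 0.203). With the local median subtracted as a fixed value it was at 0.12 and passed (adjusted p = 0.0264). That p leaves out the spread among the neighbouring genes. LZIC (0.0042), CTNNBIP1 (-0.035) and CLSTN1 (0.018) did not pass either, with limma adjusted p of 0.943, 0.51 and 0.61, although CLSTN1 passed at 0.090 with quantile normalization (adjusted p = 0.0498). Farther out, KIF1B rose by 0.18, PGD, a pentose phosphate pathway enzyme gene, fell by 0.37 and CORT fell by 0.75 (an FPKM ratio of 0.372), with limma adjusted p of 0.0173, 0.0017 and 0.00113. CORT had a mean of 0.667 FPKM in the ETS1 libraries, so it passed the filter only through the controls. With no filter its limma adjusted p was 0.0112. KIF1B was at 0.058 with the length and GC trend removed (adjusted p = 0.263) and lost its call without control 2, ETS1 library 1 or ETS1 library 2 (0.0507, 0.0567 and 0.112). PGD was at -0.22 with quantile normalization (adjusted p = 0.00961). NMNAT1 lost its call without ETS1 library 1 or ETS1 library 2 (0.0758 and 0.0553). Over the 59 tested protein-coding genes within 5 Mb of RBP7, the median change was -0.062.

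**Figure D2:**
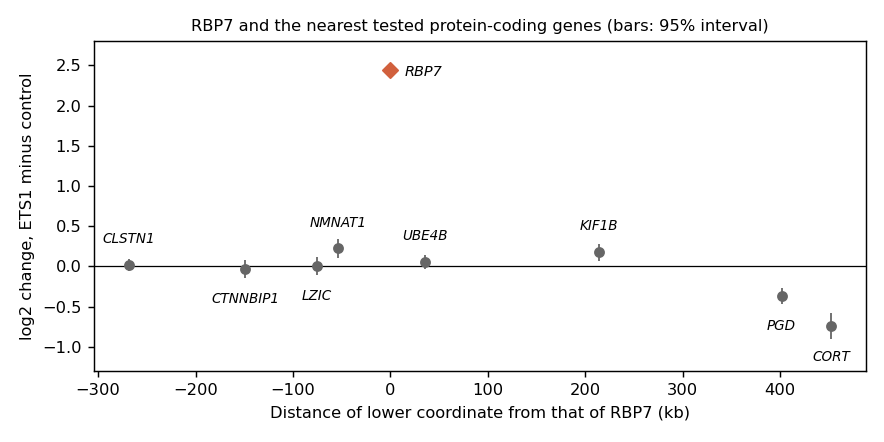
log2 change (ETS1 minus control) against the distance in kb of each gene's lower coordinate from that of RBP7, for RBP7 (diamond) and the 4 nearest tested protein-coding genes on each side (circles, with 95% intervals from limma). RBP7 stands at 2.44, and the 8 neighbours lie between -0.75 and 0.23.

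Across the 4 libraries, the genes whose centred log2(FPKM + 1) values lay closest to those of RBP7 were SNAI2, TNFRSF10D and INA, at Euclidean distances of 0.28, 0.32 and 0.32. SNAI2, which encodes the EMT repressor SLUG, was 4.86 and 4.54 FPKM in the controls and 26.9 and 28.4 FPKM in the ETS1 libraries. With 4 libraries in 2 groups, any gene with a similar change of log2(FPKM + 1) lies close by this measure. TNFRSF10D is close on this scale although its FPKM ratio was 21.9 against 6.88 for RBP7, and with a pseudocount of 0.1 FPKM the changes were 4.07 and 2.77. Unlike RBP7, none of the 3 had controls that differed by 1.50 times.

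CRABP2 encodes a carrier that hands retinoic acid to the RARs in the nucleus, and it had the highest FPKM of the 9 genes in both groups. The gene lies on chromosome 1 from 156699606 to 156705816 on the minus strand (GENCODE 29 on GRCh38, as for all positions that follow). It stood at 25.0 and 24.95 FPKM in the controls and 30.97 and 28.2 FPKM in the ETS1 libraries. Both ETS1 values were higher, and they differed from each other more than the controls did. CRABP2 rose by 0.23 on the log2 scale (standard error 0.050, limma adjusted p = 0.0137), a ratio of 1.18. The call was lost with no filter (adjusted p = 0.0657), and with the length and GC trend removed the change was 0.39 (adjusted p = 0.00186).

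Seen together with the related carrier genes RBP5, CRABP1 and FABP5, the summed FPKM of these 5 cytosolic carriers went from 37.2 and 35.6 in the controls to 58.1 and 55.9 in the ETS1 libraries. RBP7 made up 9.38% and 6.52% of that sum in the controls and 34.1% and 36.1% in the ETS1 libraries. The share of CRABP2 went from 67.2% and 70.05% to 53.3% and 50.4%, although its own level rose. FABP5 encodes a fatty-acid-binding protein that can also carry retinoic acid, towards PPARD. It fell by 0.40, from 7.71 and 7.53 FPKM to 5.55 in both ETS1 libraries (limma adjusted p = 0.00116); the gene has close pseudogene copies that can share its reads, so its value is uncertain. RBP5, another retinol carrier, rose by 0.61 from a low level of 0.959 and 0.795 FPKM to 1.79 and 1.94 FPKM (limma adjusted p = 0.00267), an FPKM ratio of 2.12. Its log2 change was 1.01 with a pseudocount of 0.1 FPKM and 1.09 with voom. The control mean of RBP5 was 0.877 FPKM, so it passed the filter only through the ETS1 libraries. With no filter its limma adjusted p was 0.0223. CRABP1 was at most 0.02496 FPKM in every library, and RBP4, the plasma carrier, was listed at 0 in both controls and at 0.0121 and 0.0122 FPKM in the ETS1 libraries.

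**Figure D3:**
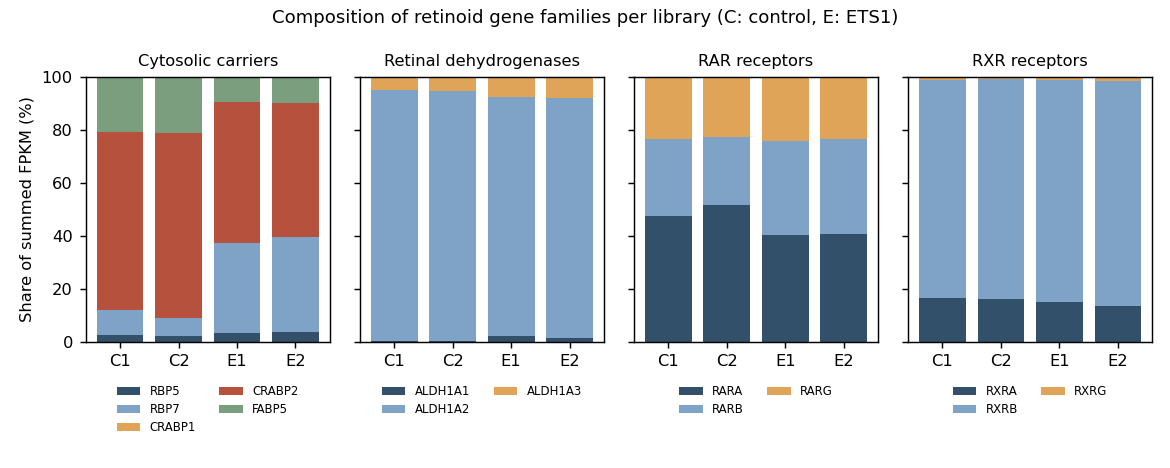
Share of each gene (%) in the summed FPKM of its family, per library (C1 and C2 controls, E1 and E2 ETS1), for 5 cytosolic carriers, retinal dehydrogenases, RARs and RXRs. RBP7 is 9.38% and 6.52% of these carriers in the controls and 34.1% and 36.1% with ETS1, ALDH1A2 is 90.7% or more of its family in every library, and the share of RARB is larger and that of RARA smaller with ETS1.

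Among the enzymes, RDH10 performs the first oxidation, from retinol to retinal. It stood at 7.73 and 6.89 FPKM in the controls and 9.16 and 9.99 FPKM with ETS1 (1664 and 1622 reads, then 2799 and 3011). The groups did not overlap, but each spread was wide, with SDs of 0.592 and 0.585 FPKM (n = 2 each). RDH10 rose by 0.35 (standard error 0.067, limma adjusted p = 0.0101). The median change of the 16 tested protein-coding genes within 5 Mb of RDH10 on chromosome 8 (73294612 to 73325281, GENCODE 29 on GRCh38) was 0.18, and with the local median removed the change was 0.16 and no longer passed (adjusted p = 0.0765); with no filter the adjusted p was 0.058. RPL7, a ribosomal protein gene on the opposite strand, shares 1178 bases with the RDH10 locus and fell by 0.23 (limma adjusted p = 0.00211), and since the use of strand is not given in the sources used here, reads of the shared stretch cannot be assigned.

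DHRS3 encodes the enzyme that reduces retinal back to retinol and works in a complex with RDH10 (chromosome 1, 12567910 to 12617731, minus strand). It was 12.05 and 11.4 FPKM in the controls and 12.1 and 12.3 FPKM in the ETS1 libraries. The higher control lay just under the lower ETS1 library. Its change of 0.056 had a 95% interval of -0.042 to 0.15 and did not pass (limma adjusted p = 0.252), but with the length and GC trend removed it was at 0.13 and passed (adjusted p = 0.0268). DHRS3 is also a textbook retinoic acid target.

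ALDH1A3 encodes one of the 3 dehydrogenases that make retinoic acid (chromosome 15, 100877714 to 100916626, plus strand). It was 0.913 and 0.934 FPKM in the controls and 0.671 and 0.689 FPKM with ETS1 (213 and 238 reads, then 222 and 225). Both ETS1 values were lower, a ratio of 0.736. Its mean lay under 1 FPKM, so the gene was outside the fit; the authors' deposited table lists it at -0.38 on the log2 scale (adjusted p = 0.0248).

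ALDH1A2 (chromosome 15, 57953424 to 58497866, minus strand), not one of the 9 genes but from the further retinoid list, was the main retinal dehydrogenase transcript of these cells. It made up 94.7% and 94.6% of the summed ALDH1A FPKM in the controls and 90.7% and 91.0% in the ETS1 libraries. Its level was 17.3 and 16.8 FPKM in the controls and 8.21 and 8.13 FPKM with ETS1 (6014 and 6393 reads, then 4055 and 3960). ALDH1A2 fell by 0.98 on the log2 scale (standard error 0.032, limma adjusted p = 0.000417), and only 1.14% of tested genes changed by as much in either direction. The 27 tested protein-coding genes within 5 Mb on chromosome 15 had a median of -0.17, and with that removed ALDH1A2 was at -0.81. The summed level of ALDH1A1, ALDH1A2 and ALDH1A3 went from 18.3 and 17.8 FPKM to 9.05 and 8.93 FPKM, a ratio of 0.499. ALDH1A1 contributed little, with at most 0.172 FPKM in any library.

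The CYP26 enzymes, which clear retinoic acid, were lower in sum, at 6.55 and 6.18 FPKM in the controls and 5.32 and 5.03 in the ETS1 libraries. CYP26A1, a strongly retinoic-acid-inducible gene, fell by 0.53, from 2.50 and 2.02 FPKM to 1.29 and 1.20 FPKM (limma adjusted p = 0.00647), an FPKM ratio of 0.551; its log2 change was -0.80 with a pseudocount of 0.1 FPKM and -0.84 with voom. CYP26B1 changed by -0.055, with a 95% interval of -0.16 to 0.055 (limma adjusted p = 0.31). CYP26A1 thus made up 38.2% and 32.6% of the CYP26 sum in the controls and 24.3% and 23.8% in the ETS1 libraries.

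**Figure D4:**
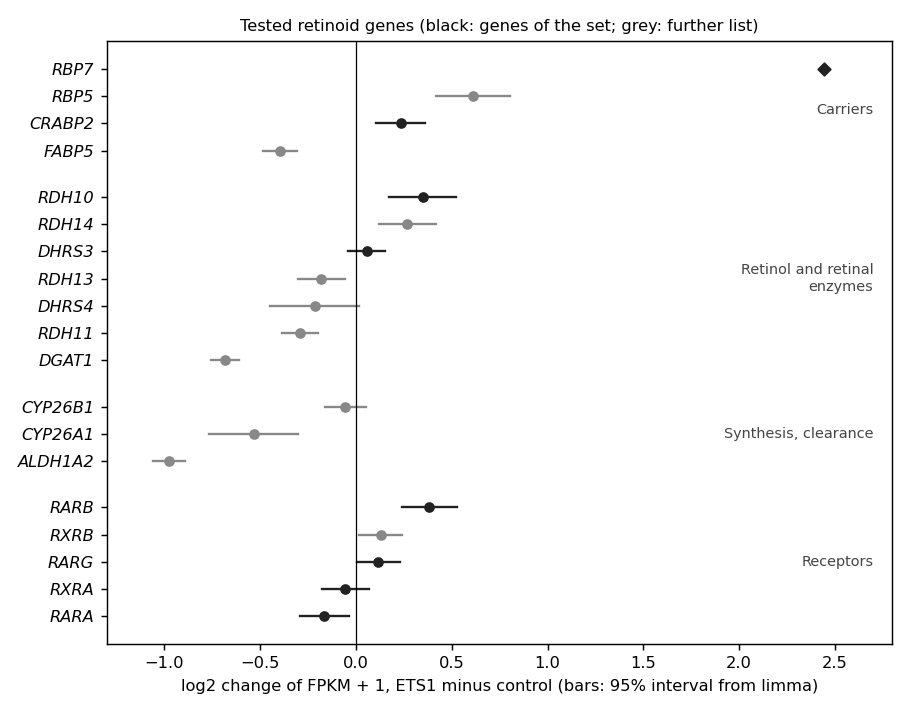
log2 change of FPKM + 1 (ETS1 minus control) of the tested retinoid genes, ordered by role, black for the 8 tested genes of the set and grey for the further list; bars are 95% intervals from limma, and RBP7 (diamond) is drawn without one. RBP7 at 2.44 and ALDH1A2 at -0.98 are the 2 ends, and the receptors lie between -0.17 and 0.38.

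Of the receptors, RARB encodes the isotype whose own transcription retinoic acid induces. It was 3.73 and 3.33 FPKM in the controls and 4.90 FPKM in both ETS1 libraries (557 and 544 reads, then 1039 and 1025). The ETS1 libraries were alike and both controls were lower. RARB rose by 0.38 (standard error 0.055, limma adjusted p = 0.00426), a ratio of 1.39, and it kept its direction and its call under all 15 alternatives that gave a value. A change of at least this size was seen for 20.6% of tested genes. The 13 tested protein-coding genes within 5 Mb had a median of -0.24, and with that removed RARB was at 0.62. RARB (chromosome 3, 25174332 to 25597932, plus strand, GENCODE 29 on GRCh38) shares 28 bases with TOP2B on the opposite strand, which fell by 0.26 (limma adjusted p = 0.00162).

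RefSeq lists 4 RARB windows in the table used. One of them, chr3:25428013-25428262 on the plus strand of GRCh38.p14, is shown because it holds a direct repeat of 2 retinoid half-sites spaced by 5 bases (DR5), the arrangement that RAR and RXR bind. Capitals mark the repeat.

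RARB: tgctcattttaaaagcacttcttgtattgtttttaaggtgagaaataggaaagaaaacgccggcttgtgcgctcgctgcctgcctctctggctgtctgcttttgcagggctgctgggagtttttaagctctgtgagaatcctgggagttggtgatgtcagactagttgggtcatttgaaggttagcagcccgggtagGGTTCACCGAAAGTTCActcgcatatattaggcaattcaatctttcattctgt

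The repeat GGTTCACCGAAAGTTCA runs from -53 to -37 relative to the start. A DR5 of any of the 4 half-sites, on either strand, occurs in 26 of the 35116 windows (0.074%), and in none of the other windows listed for the members; RDH10 has no window in the table used. The half-site GGGTCA also occurs in this RARB window, outside the repeat. The FPKM is a value per gene, so it does not say from which RARB start the reads came.

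RARA, the broadly expressed isotype, lies on chromosome 17 from 40309192 to 40357643 on the plus strand. It was 6.09 and 6.68 FPKM in the controls and 5.58 FPKM in both ETS1 libraries. Both ETS1 values were below both controls, and the controls differed by more than the gap between the lower control and the ETS1 libraries. RARA fell by 0.17 (standard error 0.050, limma adjusted p = 0.0394), a ratio of 0.874. This call was lost without control 2 (-0.11, adjusted p = 0.105), without ETS1 library 1 or ETS1 library 2 (adjusted p = 0.129 and 0.134), with no filter (0.116) and with the length and GC trend removed (0.0583).

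RARG, the isotype prominent in epidermis, lies on chromosome 12 from 53210567 to 53232980 on the minus strand. It was 2.98 and 2.93 FPKM in the controls and 3.35 and 3.23 FPKM in the ETS1 libraries. The groups did not overlap, but the change of 0.12 did not pass (95% interval 0.0030 to 0.23, limma adjusted p = 0.0724). With a constant prior variance the adjusted p was 0.0478, and with the length and GC trend removed it was 0.0382. RXRA, a partner of the RARs, lies on chromosome 9 from 134317098 to 134440585 on the plus strand. It was 2.96 and 2.90 FPKM in the controls and 2.86 and 2.71 FPKM in the ETS1 libraries. Its change of -0.056 had a 95% interval of -0.18 to 0.067 and did not pass (limma adjusted p = 0.352). Its direction depended on the local correction: the 96 tested protein-coding genes within 5 Mb on chromosome 9 had a median of -0.32, and with that removed RXRA was at 0.26 and passed (adjusted p = 0.00476). That p takes the local median as a fixed value and leaves out the spread among the 96 genes.

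Summed over the 3 RARs the level was 12.8 and 12.9 FPKM in the controls and 13.8 and 13.7 FPKM in the ETS1 libraries, a ratio of 1.07. RARA made up 47.6% and 51.6% of it in the controls and 40.3% and 40.7% in the ETS1 libraries. The share of RARB went from 29.1% and 25.8% to 35.4% and 35.7%, and that of RARG from 23.3% and 22.6% to 24.2% and 23.6%. RXRB, from the further list, was the main RXR transcript, at 14.8 and 15.1 FPKM in the controls and 15.9 and 17.0 FPKM in the ETS1 libraries. It made up between 82.4% and 85.1% of the RXR sum in every library, and its change of 0.13 did not pass (limma adjusted p = 0.0512). It passed under 5 of 16 alternatives, with adjusted p of 0.015 to 0.0464, the highest without ETS1 library 1. Shares are given without a test.

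Ordered by level, the controls ran from CRABP2 through DHRS3, RDH10, RARA and RARB to RARG, RXRA and RBP7, with ALDH1A3 last. The ranges of RARG and RXRA overlapped in the controls, and the RBP7 range overlapped those of RARB, RARG and RXRA. The order of RARG and RXRA and the place of RBP7 beside these 3 receptors are therefore not resolved. RARB stood above RARG and RXRA in FPKM. In control reads RARB was lower, at 557 and 544 against 617 and 662 for RARG and 1405 and 1506 for RXRA. The place of RARB thus rests on the gene lengths that FPKM divides by. In the ETS1 libraries RBP7 stood second, above DHRS3, and no neighbours in the order overlapped. Among tested genes, RBP7 moved from percentile 27.9 to percentile 81.9 of the group means, and CRABP2 from 85.1 to 88.6.

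The wider pathway was read from 4 lists. Of the 36 genes of the further retinoid list, 35 were in the table and 11 were tested, with 2 called higher, 6 lower and 3 not called, and a median of -0.22, where 30.7% of all tested genes were called higher and 28.4% lower, with a median of 0.016. Those higher were RBP5, which passed the filter only through the ETS1 libraries, and RDH14. Lower were ALDH1A2, CYP26A1, FABP5, DGAT1, RDH11 and RDH13, the last 2 being retinol dehydrogenase family genes; RDH11, RDH13 and RDH14 are named after their values were seen. DGAT1, an acyltransferase that can esterify retinol beside its main role in triglyceride synthesis, went from 29.3 and 29.5 FPKM to 17.8 and 18.1 FPKM, a change of -0.68 (limma adjusted p = 0.000439) in a part of chromosome 8 with a local median of -0.31, and it was at -0.38 with that removed. STRA6, the retinol uptake receptor, was low at 0.161 and 0.159 FPKM in the controls and 0.338 and 0.377 FPKM in the ETS1 libraries. LRAT, the retinol esterifying enzyme, was between 0.143 and 0.205 FPKM in all 4 libraries. Of the list, 24 genes were under 0.5 FPKM in every library.

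Of the 20 retinoic acid targets, RARB, CRABP2 and DHRS3 among them, 13 were tested, 3 were called higher and 4 lower, and the median was -0.055, with counts near the 30.7% higher and 28.4% lower of all tested genes. Higher were RARB, CRABP2 and NRIP1, the last named after its value was seen. Lower were HOXB4 (-0.67), CYP26A1 (-0.53), MEIS2 (-0.46) and FOXA1 (-0.34, named after its value was seen), with limma adjusted p of 0.000474, 0.00647, 0.00107 and 0.00364. By FPKM ratio CYP26A1 (0.551) was lowered more than HOXB4 (0.598). MEIS2 lies on chromosome 15, and with the local median removed it was at -0.11 and did not pass (adjusted p = 0.053). RARB and CYP26A1, both inducible by retinoic acid, went in opposite directions.

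Of 16 RAR coregulators, 15 were tested and 10 were called higher, 1 lower and 4 not called, with a median of 0.22, against 30.7% higher, 28.4% lower and a median of 0.016 over all tested genes. PRAME, a repressor of RAR signalling, went from 18.5 and 17.9 FPKM to 28.96 and 28.6 FPKM, a rise of 0.64. NCOR1, the classical RAR corepressor, rose by 0.57, and the coactivators NCOA2 and NCOA1 by 0.46 and 0.42. Their limma adjusted p were 0.000482, 0.000685, 0.00344 and 0.00113. With the local chromosomal median removed, NCOR1 was at 0.27 and NCOA2 at 0.29, and both still passed. Corepressors and coactivators were both among the genes called higher, while CARM1, a coactivator methyltransferase named after its value was seen, fell by 0.26 (limma adjusted p = 0.00151). Of 13 other RXR partners, 10 were tested, 1 was called higher and 2 lower, and the median was -0.0074, against the same shares of all tested genes (30.7% and 28.4%). PPARG fell by 0.40, from 7.60 and 7.70 FPKM to 5.61 and 5.53 FPKM (limma adjusted p = 0.00114), and was at -0.22 with the local median removed. The other gene called lower, THRB, had a mean of 0.961 FPKM in the ETS1 libraries, so it passed the filter only through the controls. With no filter its limma adjusted p was 0.0983. THRB (-0.23, and -0.40 with a pseudocount of 0.1 FPKM; limma adjusted p = 0.0338) and PPARD (0.15, limma adjusted p = 0.029) each lost the call under 8 alternatives. For THRB these include leaving out any 1 of the 4 libraries (adjusted p of 0.0772 to 0.16) and the local median removed (-0.093), and for PPARD leaving out control 1, ETS1 library 1 or ETS1 library 2 (0.0866, 0.129 and 0.108). VDR, the vitamin D receptor, changed by -0.12 and did not pass (limma adjusted p = 0.193). With the local median removed it was at -0.22 and passed (adjusted p = 0.0314). That p, like those of NCOR1 and NCOA2 with the local median removed, leaves out the spread among the neighbouring genes.

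The authors' deposited table gives RBP7 a log2 fold change of 2.75 with a standard error of 0.17. For RARB the authors' deposited table gives 0.42 with an adjusted p of 0.000111, for RDH10 0.35 with 7.49e-06, for CRABP2 0.21 with 0.0175, for RARA -0.20 with 0.0313, and for ALDH1A2 -1.08 with 1e-101. At its adjusted p under 0.05, 25.3% of the 15683 genes with a value in the authors' deposited table were higher and 25.9% lower (51.2% in either direction).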

How the data were processed

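RNA of TE5 cells was sequenced in bulk, in 2 control and 2 ETS1 libraries. The authors deposited FPKM values per gene, and, per the file headers, a comparison with a mean normalized count (a signal over all 4 libraries), a log2 fold change with its standard error, and a p-value with its adjusted value. HISAT2, HTSeq and DESeq2 and the build GRCh38 are named in the submitters' processing notes; versions, annotation, strand use and whether the log2 values were shrunk are not given in the sources used here. The FPKM values of the 2 tables differed in 0 cells.

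Values were taken as log2(FPKM + 1), with a mean of at least 1 FPKM, and fitted with limma 3.58.1 in R 4.3.3 (group term, intensity trend, 2 residual and 2.84 prior degrees of freedom, two-sided, Benjamini-Hochberg over 14306 genes). The fit was tested on simulated data, in which far fewer genes changed than were called here, so that test does not check these calls. Reads were recovered for the 16652 genes of the authors' comparison from the steps of the FPKM values and the mean normalized counts; 99.5% of values fell within 0.05 of a whole read. Intervals on reads cover counting error only. Positions and lengths come from a match of names to GENCODE 29, which held 84% of tested genes, and upstream windows from RefSeq.

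The members and lists were chosen with earlier results of these data known. Named are the 9 members, ETS1, the 4 largest changes of each list and a fixed set of retinoid genes, the 4 tested neighbours of RBP7 on each side, and the 3 genes most like RBP7. Of the list and marker names, 2 (BCO1 and PECAM1) were not matched. A further gene was left out of the lists and sums and is not reported here. Alternatives are given in the closing section.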

Additional observations from a re-analysis of the deposited data

How the results depend on the processing

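Of the members, RARB kept its direction and call under all 15 alternatives that gave a value, with log2 changes of 0.32 to 0.62. RBP7, untested, ranged from 2.22 to 2.82, the highest from voom run on the recovered reads. CRABP2 lost its call under 2 of 16, RDH10 under 3 and RARA under 7. DHRS3 passed under 1 (length and GC trend removed) and RARG under 2.

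The 3 higher and 1 lower calls among members other than RBP7 became 1 and 0 at a threshold of 0.01, 1 and 0 with no filter, and 5 and 0 with the length and GC trend removed. The authors' deposited comparison gave 2 lower, with ALDH1A3 included. Leaving out each library in turn gave 3 higher throughout and 0 to 1 lower. Over all genes, 4394 were called higher; this was 2667 at 0.01, 2562 at a mean of at least 5 FPKM, and 2754 to 3989 without 1 library, lowest without ETS1 library 2. The further retinoid list went from 2 higher to 1 at 0.01 and 4 with no filter, and stayed at 2 without any 1 library. The target list (3 higher, 4 lower) went to 5 higher with no filter, and to 1 higher and 1 lower at a mean of at least 5 FPKM. The RXR partner list (1 higher, 2 lower) had 0 higher and 1 lower at 0.01 and with no filter, 0 higher in the authors' deposited comparison and with quantile normalization, 1 lower at a mean of at least 5 FPKM, 2 higher with voom, and 0 to 1 higher and 1 to 1 lower without 1 library. The coregulator counts stayed within 1.5 times under all 16 alternatives.

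With the replicate number as a block, members had 0 lower calls and the RXR partners 0 higher and 1 lower; over all genes 3712 were higher and 3571 lower. The numbers pair nothing in the labels, and the within-group differences of same-numbered libraries had a correlation of -0.046 across genes, so the block is given only here. The cause of each change was not tested.

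With the local chromosomal median removed, RXRA turned to 0.26 and CTNNBIP1 to 0.027. The local median was subtracted as a fixed value, so every adjusted p given with it removed leaves out the spread among the neighbouring genes. With the length and GC trend removed, CTNNBIP1 turned to 0.035, LZIC to -0.010 and UBE4B to -0.025. LZIC also turned to -0.0086 with trimmed-mean scaling, to -0.017 in the authors' deposited comparison, and to -0.021 without control 1 and -0.044 without ETS1 library 1 (0.052 without ETS1 library 2). CLSTN1 turned to -0.0052 in the authors' deposited comparison. Trimmed-mean scaling moved the median of all genes from 0.016 to 0.0030. RARB, RARG and RXRA had no value at a mean of at least 5 FPKM. ALDH1A3, CRABP1, RBP4, STRA6 and LRAT were under the filter on mean FPKM and not tested.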
